A study of Mus musculus with 15 samples.

Results

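The genes described here encode the machinery of DNA replication and of S phase entry, measured in mouse LSK cells, the lineage-negative, Sca-1 positive, Kit positive fraction that holds blood stem cells and early progenitors and is labelled here as stem and progenitor cells. The list has 34 genes, named by symbol with no threshold on their values, and 32 of them have a probe set that carries their symbol alone, out of 22180 genes measured on the same arrays. Ccne2 and Rfc4 were read only by probe sets shared with another gene and were not analysed here. Where a gene had several probe sets, the brightest was used. Each of 3 groups held 5 arrays of separate LSK samples, described by the submitters as biological replicates: cells taken directly after sorting (non-cultured), cells kept for 18 h in Myelocult M5300 medium without extracellular vesicles (EV), and cells kept for 18 h in that medium with EV from AFT cells, a stromal line. The labels give no genotype, strain, age, pooling of animals or amount of EV, so the p-values measure the spread between these samples. RNA was amplified from 500 pg per sample and hybridised to Affymetrix Mouse Gene 2.0 arrays, and all values are log2 signals as deposited, in which a difference of 1 is a 2-fold change.

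Replication starts from origins that are licensed in G1, when the origin recognition complex, Cdc6 and Cdt1 load the ring-shaped MCM helicase onto DNA. At the start of S phase Cdc45 and the GINS complex join the ring and activate it, polymerase alpha and primase lay primers, and the PCNA clamp, loaded by replication factor C, holds the copying polymerases on the template. Transcription of many of these genes is driven by E2F factors once cyclin-dependent kinases have inactivated the RB proteins. Most adult blood stem cells are quiescent, while the progenitors in the LSK fraction cycle more often.

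The promoters of the genes carried the letters of the E2F site more often than promoters in general, and 6 stretches are shown. Dtl, Mcm5, Pola1 and Mcm6 fell in culture and hold a match, Gins3 holds a match and was not called, and Ccne1 holds none and was not called. No gene that fell without a match is shown. Of the 17 genes with a promoter window and no match, 14 were called lower without EV, against 6.88% of all genes. Each sequence is the 160 bases directly before the annotated start of the gene, 5′ to 3′ on the gene's own strand, from RefSeq on GRCm38.p6. Capitals mark every match to TTTCCCGC, TTTCGCGC, TTTGCCGC or TTTGGCGC on either strand. They come from chr1:191575545-191575704, minus strand (Dtl), chr8:75109349-75109508, plus strand (Mcm5), chrX:93632156-93632315, minus strand (Pola1), chr1:128359706-128359865, minus strand (Mcm6), chr8:95633399-95633558, plus strand (Gins3) and chr7:38107491-38107650, minus strand (Ccne1).
Dtl: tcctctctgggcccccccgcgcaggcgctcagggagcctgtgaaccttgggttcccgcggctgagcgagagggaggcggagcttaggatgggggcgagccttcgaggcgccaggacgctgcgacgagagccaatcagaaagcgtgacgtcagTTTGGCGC
Mcm5: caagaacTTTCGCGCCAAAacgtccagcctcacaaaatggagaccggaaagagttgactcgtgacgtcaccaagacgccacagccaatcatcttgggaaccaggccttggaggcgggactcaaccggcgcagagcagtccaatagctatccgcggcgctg
Pola1: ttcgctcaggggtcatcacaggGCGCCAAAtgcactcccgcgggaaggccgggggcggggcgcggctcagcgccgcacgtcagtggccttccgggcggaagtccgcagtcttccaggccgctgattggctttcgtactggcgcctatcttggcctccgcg
Mcm6: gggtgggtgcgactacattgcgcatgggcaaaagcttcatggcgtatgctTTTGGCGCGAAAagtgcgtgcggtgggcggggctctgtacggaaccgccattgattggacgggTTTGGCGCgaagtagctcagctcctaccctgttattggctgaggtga
Gins3: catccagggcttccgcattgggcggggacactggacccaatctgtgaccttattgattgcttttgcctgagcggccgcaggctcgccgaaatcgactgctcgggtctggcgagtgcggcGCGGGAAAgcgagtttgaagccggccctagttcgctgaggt
Ccne1: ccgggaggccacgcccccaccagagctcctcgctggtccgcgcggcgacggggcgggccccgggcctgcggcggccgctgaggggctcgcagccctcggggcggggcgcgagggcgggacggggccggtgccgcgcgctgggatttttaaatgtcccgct
The match of Dtl ends at the base before the start, the 2 matches of Mcm5 overlap each other on opposite strands, and Mcm6 holds 3 matches. No match falls in the stretch shown for Ccne1.

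Promoter windows of 300 bases, from 250 before to 50 after the start, were given for 28 of the 32 genes. An E2F match lay in the window of 11 of these 28 genes (39.3%), against 704 of 27025 genes with a window in the whole table (2.6%). The median GC content of the members' windows was 60%, against 52.7% over all windows, and the part of base composition in the count was not tested. An E2F match was also held by 11 of 33 other replisome and origin genes with a window (33.3%). The share was 38.9% for E2F, RB and cyclin genes, 36.4% for chromatin duplication genes and 0% for other nucleotide supply genes. The letters CCAAT, on either strand, were found in 19 of the 28 genes (67.9%) and in 41.1% of all genes. A list of mitosis genes had another pattern: 1 of 26 held an E2F match, while 20 held TTTGAA or TTCGAA, the letters of the cell cycle homology region (CHR), against 6 of the 28 replication genes and 21.7% of all genes. Of 17 E2F matches in the members, 4 overlapped another E2F match and 1 overlapped a CCAAT or CHR match. A match to letters is a description of the window and does not show that a factor binds there.

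**Figure D1:**
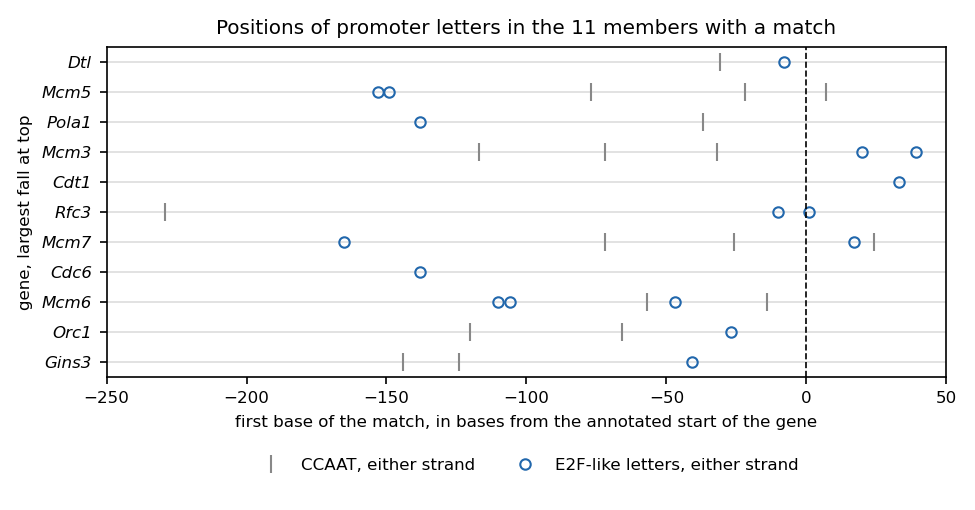
Positions of E2F-like letters (circles) and of CCAAT (ticks) in the promoter windows of the 11 members with an E2F match, in bases from the annotated start of each gene, ordered by the size of the fall in culture without EV. The circles lie on both sides of the start, and Gins3, at the bottom, holds a match although its change was not called.

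The arrays bear on the results in a few ways. Kit read 9.62 ± 0.25 (SD, n = 5) and Cd34 10.63 ± 0.07 in non-cultured cells. Of the T or NK cell markers, Cd3e read 3.73 ± 0.19 and Nkg7 8.56 ± 0.28 there. These levels come from different probe sets, which are not on 1 scale, and they are not ranked against each other. Ly6a, which encodes Sca-1, was not analysed here. Replicate 1 of the group with EV stood apart, with a mean correlation to its group of 0.964 against 0.974 to 0.976 for the others, and it was the lowest of its group in 16 of the 32 genes. Non-cultured replicate 1 was the highest of its group in 15 of the 32. Non-cultured replicates 4 and 5 had lower neutrophil markers than replicates 1 to 3 (array means of 5.64 and 5.77 against 6.73 to 6.82). Replicates 4 and 5 were also the lowest of each cultured group. They read 7.30 and 7.06 against 7.43 to 7.66 without EV, and 7.0 and 7.14 against 7.15 to 7.54 with EV. Counts are also given with non-cultured replicates 1 to 3 as the only reference. This check keeps all 5 arrays of each cultured group.

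Culture without EV against non-cultured cells asks what 18 h in medium changes. The replication genes fell together. Of the 32 measured, 27 fell and 0 rose at a limma p under 0.05 after Benjamini-Hochberg adjustment over the whole table (5 arrays against 5). Of all 22180 genes, 6.88% were called lower and 6.75% higher. All 32 differences were below 0, with a median of -1.19 against 0.01 over all genes, and 19 genes fell by more than 2-fold against 1.77% of all genes. In 24 of the 32 every array without EV lay below every non-cultured one, which held for 6.1% of all genes. The members that were not called were Gins3, Gins4, Rfc5, Ccne1 and Fen1. These are bulk measurements, so fewer cells in S phase and less RNA of these genes per cell cannot be told apart.

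Culture with EV against the same 5 non-cultured arrays gave 28 lower and 0 higher of the 32 (limma adjusted p under 0.05), with 7.85% of all genes called lower. The median difference was -1.25 against 0.04 over all genes, 21 fell by more than 2-fold against 2.06% of all genes, and 26 had groups that did not overlap against 6.18%. Rfc5 was called here in addition, and Gins3, Gins4, Ccne1 and Fen1 were again not called. Because both comparisons use the same non-cultured arrays, their values stand side by side below and are not independent. With only non-cultured replicates 1 to 3 as the reference, 25 members were called lower without EV and 25 with EV. Without replicate 1 of the group with EV, the counts were 27 and 28.

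**Figure D2:**
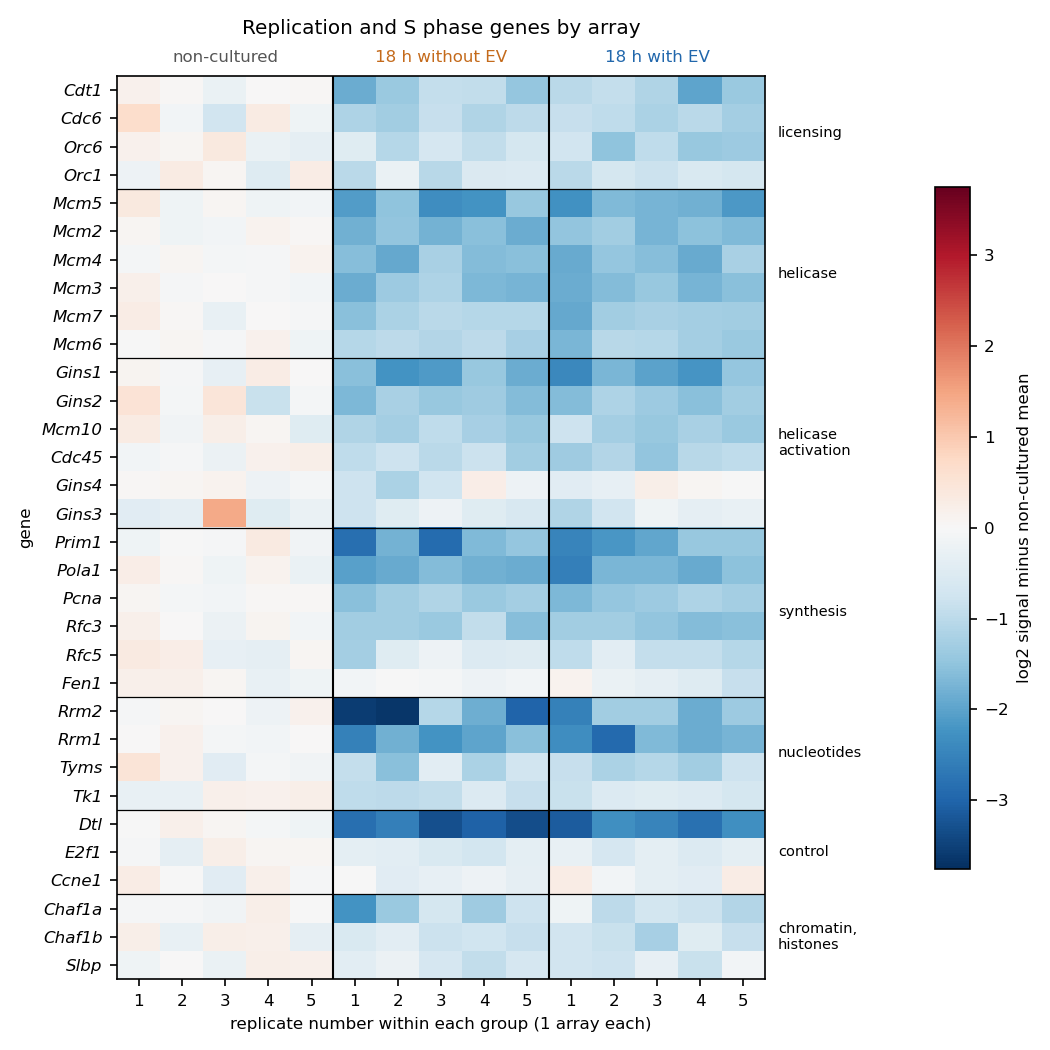
Log2 signal of each of the 32 genes (rows, grouped by role) on each of the 15 arrays (columns), as the difference from the gene's mean in the 5 non-cultured arrays, with blue for lower. Both cultured groups are lower in nearly every row, and the rows of Gins3, Gins4, Fen1, Ccne1 and E2f1 are pale.

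The MCM helicase fell as a whole. Mcm2, a subunit of the ring, read 7.92, 7.67, 7.73, 7.98 and 7.88 in the 5 non-cultured arrays, 6.04, 6.35, 6.07, 6.28 and 5.97 without EV, and 6.37, 6.52, 6.10, 6.31 and 6.19 with EV. All 10 cultured arrays were lower than all 5 non-cultured ones, and the difference was -1.70 without EV (standard error, SE, 0.10, limma adjusted p = 1.81e-08) and -1.54 with EV (SE 0.10, adjusted p = 5.02e-08). Mcm5 had the largest fall among the subunits, from 8.0, 7.48, 7.71, 7.48 and 7.53 in non-cultured cells to 5.54, 6.14, 5.32, 5.40 and 6.21 without EV and 5.36, 5.99, 5.90, 5.83 and 5.49 with EV, a difference of -1.92 (SE 0.19) and -1.93 (SE 0.19). Both cultured groups of Mcm5 lay more than 1 unit below the lowest non-cultured array. Mcm3 ranged over 8.26 to 8.57 in non-cultured arrays, 6.51 to 7.22 without EV and 6.52 to 6.97 with EV (differences -1.57 and -1.64). Mcm4 ranged over 8.35 to 8.55 in non-cultured arrays, 6.49 to 7.20 without EV and 6.53 to 7.20 with EV (-1.59 and -1.61). Mcm6, with 8.88 to 9.19 in non-cultured arrays, 7.81 to 8.07 without EV and 7.33 to 8.01 with EV, had the smallest difference without EV at -1.07 (SE 0.12) and measured -1.30 with EV. Mcm7 ranged over 7.34 to 7.91 in non-cultured arrays, 6.06 to 6.62 without EV and 5.72 to 6.40 with EV (-1.18 and -1.41). All 6 subunits were called in both comparisons, over a range of -1.92 to -1.07 without EV and -1.93 to -1.30 with EV, and in each of them the cultured groups did not overlap with non-cultured cells. The shares called lower over all genes were 6.88% without EV and 7.85% with EV. Lower groups without overlap were found for 6.1% and 6.18% of all genes. The 6 genes lie on 5 chromosomes by RefSeq, and the promoter windows of Mcm3, Mcm5 and Mcm6 and 1 of 2 windows of Mcm7 held an E2F match, whereas that of Mcm2 held none and Mcm4 had no window.

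The licensing factors that load the helicase also fell. Cdt1, which brings the helicase to the origin, read 7.35, 7.26, 6.95, 7.21 and 7.24 in the 5 non-cultured arrays, 5.35, 5.82, 6.30, 6.29 and 5.76 without EV, and 6.20, 6.31, 6.08, 5.23 and 5.80 with EV. No cultured array reached the lowest non-cultured one, and the differences were -1.30 (SE 0.20, limma adjusted p = 0.000336) and -1.28 (SE 0.20, adjusted p = 0.000398). Cdc6, the loading ATPase, differed by -1.08 and -1.06 and was uneven in non-cultured cells, with values of 6.29, 5.53, 4.92, 5.95 and 5.46. No cultured array of Cdc6 exceeded 4.77. Orc1, the large ATPase of the origin recognition complex, ranged over 5.52 to 6.33 in non-cultured arrays, 4.97 to 5.76 without EV and 4.99 to 5.43 with EV and differed by -0.67 (adjusted p = 0.0156) and -0.74 (adjusted p = 0.00775). Orc6, its smallest subunit, read 7.54, 7.45, 7.75, 7.14 and 7.05 in the 5 non-cultured arrays, 6.94, 6.33, 6.74, 6.46 and 6.74 without EV, and 6.66, 5.89, 6.43, 5.95 and 6.01 with EV. It differed by -0.74 without EV and -1.20 with EV, and all 5 non-cultured values lay above all 10 cultured ones.

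Among the genes that activate the helicase, 4 of 6 fell and 2 were not called. Over all genes, 6.88% were called lower without EV and 7.85% with EV. Gins1, a subunit of the GINS complex, fell from 6.12, 5.96, 5.70, 6.30 and 6.02 in non-cultured cells to 4.45, 3.77, 3.91, 4.59 and 4.15 without EV and 3.61, 4.30, 4.02, 3.79 and 4.57 with EV (differences -1.85 and -1.96, SE 0.19). Gins2 ranged over 6.73 to 8.09 in non-cultured arrays, 5.88 to 6.36 without EV and 5.94 to 6.41 with EV, with differences of -1.46 and -1.40 (SE 0.21), and in both genes the cultured arrays lay below all non-cultured ones. Gins4, of the same complex, read 8.21, 8.23, 8.31, 7.98 and 8.09 in the 5 non-cultured arrays, 7.37, 6.99, 7.43, 8.40 and 7.97 without EV, and 7.73, 7.87, 8.38, 8.22 and 8.15 with EV. Its cultured and non-cultured arrays overlapped, and neither difference passed, at -0.53 (limma adjusted p = 0.115) and -0.09 (adjusted p = 0.834). One array decided the first value: without replicate 4 of the group without EV, Gins4 differed by -0.72 (adjusted p = 0.0116).

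Gins3 read 4.35, 4.44, 6.20, 4.32 and 4.53 in the 5 non-cultured arrays, 3.98, 4.30, 4.57, 4.32 and 4.18 without EV, and 3.64, 4.05, 4.62, 4.41 and 4.50 with EV. The groups overlapped, 1 non-cultured array was far above the other 4, and the differences were -0.50 (SE 0.30, limma adjusted p = 0.365) and -0.52 (adjusted p = 0.304). Without that array the values were -0.14 and -0.16. To ask whether Gins1 and Gins3 changed unequally, the difference between the 2 within each array was compared between groups. It moved by -1.35 without EV and -1.44 with EV against non-cultured cells, with an adjusted p of 0.0952 for each by a two-sided exact permutation test (n = 5 per group, adjusted over 12 tests). Without non-cultured replicate 3 the changes were -1.79 and -1.88, with an exact permutation adjusted p of 0.0317 for each. Gins3 was dim, with a mean level at percentile 40.1 of all genes. The cultured means were 4.17 and 4.06 for Gins1 and 4.27 and 4.24 for Gins3, from probe sets that are not on 1 scale. Whether a low signal limits the fall that Gins3 can show was not tested. Outside GINS, Cdc45 ranged over 6.36 to 6.80 in non-cultured arrays, 5.28 to 5.83 without EV and 5.11 to 5.65 with EV and differed by -0.97 (SE 0.13) and -1.18. Mcm10, which helps the activated helicase to leave the origin, ranged over 5.83 to 6.58 in non-cultured arrays, 4.87 to 5.32 without EV and 4.87 to 5.51 with EV and differed by -1.20 (SE 0.15) and -1.22. Both fell in both comparisons, with groups that did not overlap.

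DNA synthesis genes ran from a fall of over 4-fold to no detected change. Prim1, the catalytic subunit of primase, read 7.66, 7.81, 7.77, 8.16 and 7.68 in the 5 non-cultured arrays, 4.98, 6.03, 4.92, 6.17 and 6.37 without EV, and 5.34, 5.62, 5.85, 6.40 and 6.40 with EV. Every cultured array was more than 1 log2 unit below every non-cultured one, with differences of -2.12 (SE 0.28) and -1.89. Pola1, the catalytic subunit of polymerase alpha, ranged over 7.24 to 7.73 in non-cultured arrays, 5.46 to 5.88 without EV and 4.93 to 5.97 with EV and differed by -1.84 (SE 0.16) and -1.88. Pcna, the clamp, read 10.52, 10.38, 10.36, 10.51 and 10.51 in the 5 non-cultured arrays, 8.89, 9.15, 9.33, 9.06 and 9.19 without EV, and 8.76, 9.0, 9.08, 9.31 and 9.20 with EV. Its arrays agreed closely within groups, and the fall was 2.52-fold without EV (log2 -1.33, SE 0.11) and 2.61-fold with EV (log2 -1.39, SE 0.11). The clamp loader subunit Rfc3 ranged over 6.39 to 6.80 in non-cultured arrays, 5.03 to 5.69 without EV and 5.0 to 5.33 with EV and differed by -1.30 (SE 0.12) and -1.45.

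Rfc5, another loader subunit, ranged over 6.89 to 7.57 in non-cultured arrays, 5.95 to 7.05 without EV and 6.17 to 6.85 with EV. It missed the threshold without EV (log2 -0.59, SE 0.19, limma adjusted p = 0.0582) and passed with EV (-0.84, adjusted p = 0.0078), while the difference between the 2 cultured groups was itself not called (-0.25, 95% interval -0.66 to 0.16, adjusted p = 0.834). The first value passed when any of 3 arrays was dropped, at adjusted p = 0.0345 without replicate 3 of the group without EV, 0.0405 without non-cultured replicate 4 and 0.0473 without replicate 2 of the group with EV, and at 0.0386 with the dimmest 40% of genes left out. Fen1, the nuclease that trims Okazaki fragments, stood out by its small difference. It read 6.14, 6.12, 6.0, 5.66 and 5.79 in the 5 non-cultured arrays, 5.84, 5.93, 5.86, 5.76 and 5.83 without EV, and 6.07, 5.68, 5.61, 5.45 and 5.09 with EV. The 3 groups overlapped, and the intervals were -0.41 to 0.22 without EV and -0.67 to -0.05 with EV, so a 2-fold fall lies outside both. Its adjusted p was 0.788 and 0.126 by limma, and the second was 0.0189 without replicate 1 of the group with EV (log2 -0.48) and 0.0351 with array weights. Its second, dimmer probe set differed by -0.17 and -0.25.

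Genes that supply deoxynucleotides fell in both cultures. Rrm1, the large subunit of ribonucleotide reductase, read 8.48, 8.63, 8.42, 8.37 and 8.50 in the 5 non-cultured arrays, 5.96, 6.69, 6.23, 6.49 and 6.93 without EV, and 6.15, 5.58, 6.82, 6.64 and 6.74 with EV. All cultured arrays were at least 1 unit lower, with a difference of -2.02 (SE 0.22) without EV and -2.10 with EV. Rrm2, the small subunit that cycling cells make in S phase, read 7.79, 7.92, 7.87, 7.65 and 8.02 in the 5 non-cultured arrays, 4.29, 4.20, 6.78, 6.03 and 4.85 without EV, and 5.32, 6.53, 6.53, 6.0 and 6.48 with EV. Non-cultured arrays agreed closely while those without EV spread widely (SD 1.13, n = 5), and the differences were -2.62 (SE 0.41, limma adjusted p = 0.000307) and -1.68 (adjusted p = 0.01). A second, dimmer probe set of Rrm2 differed by -0.90 (adjusted p = 0.0228 among all probe sets) and -0.54 (adjusted p = 0.18), so the size of the fall depends on the probe set. With the mean of both, Rrm2 differed by -1.76 and -1.11. Tyms, thymidylate synthase, ranged over 6.92 to 7.83 in non-cultured arrays, 5.78 to 6.94 without EV and 6.05 to 6.57 with EV and differed by -0.95 and -1.04 (SE 0.20). Tk1, the thymidine kinase of cycling cells, ranged over 7.04 to 7.55 in non-cultured arrays, 6.35 to 6.81 without EV and 6.49 to 6.88 with EV and differed by -0.86 and -0.60 (SE 0.13). A further probe set of Tyms is shared with a pseudogene and was not used.

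Rrm2b, an alternative small subunit that cells also make outside S phase, went the other way, with a difference of 0.42 without EV (SE 0.13, limma adjusted p = 0.0422) and 0.48 with EV (adjusted p = 0.0205). Within each array, Rrm2 minus Rrm2b was 1.92 ± 0.23 (SD, n = 5) in non-cultured cells, -1.13 ± 1.06 without EV and -0.24 ± 0.44 with EV. The change against non-cultured cells was -3.04 and -2.16, each with a two-sided exact permutation p = 0.00794, the smallest that 5 against 5 arrays allow, and 0.0476 adjusted over 12 tests. These values use the brighter Rrm2 probe set. Under 4 other settings, including the mean of both probe sets, the change was -3.06 to -2.18 without EV and -2.18 to -1.59 with EV. The adjusted p was 0.0952 when any of non-cultured replicates 1, 2, 4 or 5 was left out. Between the cultured groups the change was 0.88 (exact permutation adjusted p = 0.245). Only the change of this difference is read here, because signals of different probe sets are not on 1 scale. The pairs of Cdt1 with Gmnn, which encodes the inhibitor of Cdt1, and of E2f1 with E2f4 were not called (smallest exact permutation adjusted p = 0.152). Single arrays decided 3 of these values. Without replicate 3 of the group without EV, the change in Cdt1 minus Gmnn was -0.75 in culture without EV and 0.69 between the cultured groups (exact permutation adjusted p = 0.0476 for each), in place of -0.54 and 0.48. Without replicate 1 of that group, the change in E2f1 minus E2f4 in culture without EV was -0.45 (exact permutation adjusted p = 0.0317), in place of -0.28. Ccne1 could not be paired with Ccne2.

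Genes that control S phase held both the largest and some of the smallest differences. Dtl, the substrate adaptor that marks Cdt1 for destruction on PCNA-bound DNA, read 7.62, 7.82, 7.70, 7.56 and 7.49 in the 5 non-cultured arrays, 4.82, 5.09, 4.34, 4.60 and 4.31 without EV, and 4.52, 5.34, 5.16, 4.84 and 5.35 with EV. The gap between the lowest non-cultured and the highest cultured array was over 2 log2 units, and the fall was 8.04-fold without EV (log2 -3.01, SE 0.17, limma adjusted p = 8.46e-09) and 6.05-fold with EV (log2 -2.60, adjusted p = 4.16e-08). E2f1 itself read 5.64, 5.35, 5.88, 5.74 and 5.76 in the 5 non-cultured arrays, 5.32, 5.29, 5.11, 4.99 and 5.32 without EV, and 5.39, 5.06, 5.32, 5.16 and 5.32 with EV. It fell by a modest amount, 1.38-fold (log2 -0.47, adjusted p = 0.00741) and 1.34-fold (log2 -0.42, adjusted p = 0.0141), and neither value passed with non-cultured replicates 1 to 3 as the only reference (adjusted p = 0.0547 and 0.0858). Ccne1, cyclin E1, read 5.65, 5.39, 4.96, 5.59 and 5.35 in the 5 non-cultured arrays, 5.37, 4.95, 5.08, 5.20 and 5.06 without EV, and 5.65, 5.28, 5.02, 4.97 and 5.66 with EV. Its groups overlapped, and the 95% intervals of -0.59 to 0.08 without EV and -0.41 to 0.26 with EV leave out a 2-fold change.

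Chaf1a, Chaf1b and Slbp act on chromatin and histones. Chaf1a, the large subunit of the chromatin assembly factor that deposits histones behind the fork, read 6.53, 6.54, 6.46, 6.80 and 6.56 in the 5 non-cultured arrays, 4.34, 5.17, 5.91, 5.26 and 5.81 without EV, and 6.40, 5.58, 5.88, 5.77 and 5.48 with EV. All cultured arrays were lower, with a difference of -1.28 without EV (SE 0.24, limma adjusted p = 0.00172). With EV it passed narrowly (-0.75, adjusted p = 0.0495), and with single arrays dropped it kept that call in 4 of 15 cases, without replicate 1 of the group with EV or without replicates 1, 3 or 5 of the group without EV. The other 11 gave an adjusted p of 0.0599 to 0.113, and non-cultured replicates 1 to 3 as the only reference 0.177. Chaf1b, its partner subunit, ranged over 6.48 to 7.04 in non-cultured arrays, 5.97 to 6.42 without EV and 5.58 to 6.37 with EV and differed by -0.67 (adjusted p = 0.00676) and -0.82 (adjusted p = 0.00156). Slbp, which binds the stem-loop of histone mRNAs, ranged over 7.40 to 7.87 in non-cultured arrays, 6.74 to 7.44 without EV and 6.81 to 7.57 with EV and differed by -0.56 (adjusted p = 0.0305) and -0.55 (adjusted p = 0.0333) with overlapping groups. The call for Slbp held in 9 of 15 such cases in each comparison. It was lost without non-cultured replicates 2, 4 or 5 in both, without replicates 3, 4 or 5 of the group without EV in the first, and without replicates 1, 2 or 4 of the group with EV in the second (adjusted p = 0.0575 to 0.0867), and in both with non-cultured replicates 1 to 3 as the only reference (0.195 and 0.205).

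**Figure D3:**
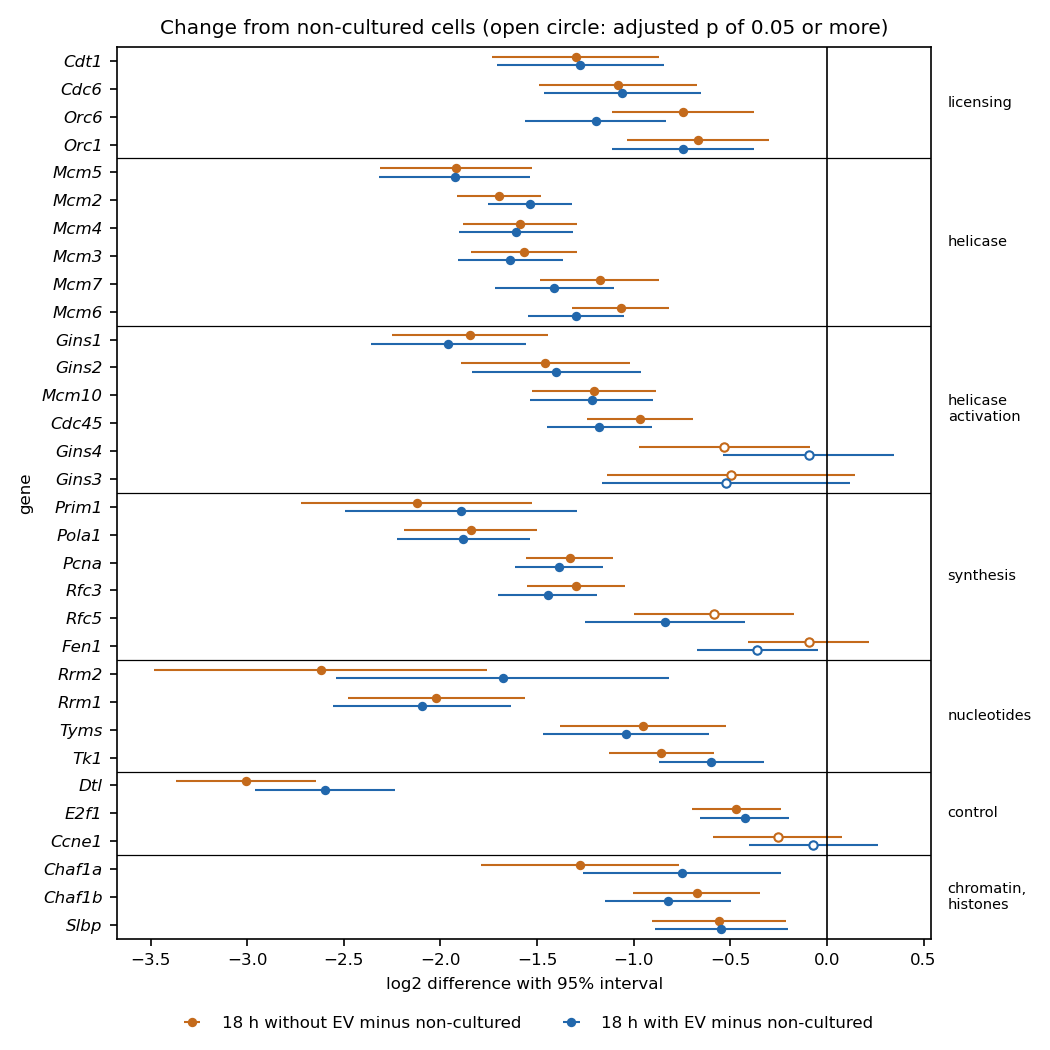
Log2 difference from non-cultured cells for each gene, grouped by role, with 95% intervals of the limma fit (5 arrays per group). Orange is culture without EV and blue culture with EV, both against the same 5 non-cultured arrays, and open circles mark differences that were not called. Dtl lies farthest from 0, and the open circles are Gins3, Gins4, Fen1 and Ccne1 in both comparisons and Rfc5 without EV.

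The median fall differed between the role groups. The median difference without EV was -1.49 for nucleotide supply, -1.58 for the helicase, -1.31 for synthesis, -1.08 for helicase activation, -0.91 for licensing, -0.67 for chromatin and histone genes and -0.47 for the control genes. These groups hold 3 to 6 measured genes each and their order was not tested. The mean of the control genes was -1.24, since they include Dtl, which fell most of all members. Of the 11 genes with an E2F match in the window, 10 were called lower without EV (median -1.30), as were 14 of the 17 without one (median -0.95). The share called lower without EV over all genes was 6.88%. Prim1, Rrm1, Rrm2 and Mcm2, with falls of over 3-fold, had no match in their windows. Gins3, with a match and a low signal, was not called.

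Genes of the same pathway outside the list mostly moved the same way. Like the members, the lists beside them were chosen with earlier results of these data known, so they are not independent support. Over all genes, 6.88% were called lower and 6.75% higher without EV, and 7.85% and 6.28% with EV. Of 40 other replisome and origin genes, 26 fell and 1 rose without EV (median -0.75), and 26 and 1 with EV (median -0.89). Pole, the leading strand polymerase, differed by -2.54 (SE 0.13, limma adjusted p = 3.2e-09) and -2.38. Ticrr, which helps to bring Cdc45 to the helicase, differed by -2.02 and -1.91, and Topbp1, its partner, by -1.41 and -1.34. Pold1, the catalytic subunit of polymerase delta, differed by -1.18 without EV. Rfc2, the gene that rose, was chosen after its value was seen and differed by 0.45 (adjusted p = 0.0375) and 0.44 (adjusted p = 0.0412), whereas Rfc3 of the same clamp loader fell.

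Of 13 chromatin duplication genes, 8 fell without EV and 9 with EV, and none rose. Of all genes, 6.88% were called lower without EV and 7.85% with EV. Uhrf1, which guides DNA methylation to new strands, differed by -2.66 (SE 0.22) and -2.28, the chromatin remodeller Hells by -2.22 and -2.09, and Dnmt1, the maintenance methyltransferase, by -0.73 and -0.80. Of 13 other nucleotide supply genes, 8 fell and 3 rose without EV, and 9 fell and 1 rose with EV. Of all genes, 6.75% were called higher without EV and 6.28% with EV. Dut, the dUTPase, differed by -0.91 (SE 0.13) and -1.02. Besides Rrm2b, those that rose without EV were Dguok (0.48), the mitochondrial deoxyguanosine kinase, and Samhd1 (0.37), which breaks down deoxynucleotides, both chosen after their values were seen.

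Upstream of the replication genes, 8 of 22 E2F, RB and cyclin genes fell and 2 rose without EV, and 12 fell and 1 rose with EV. Over all genes, 6.88% were called lower and 6.75% higher without EV, and 7.85% and 6.28% with EV. The counts of genes that rose are near those shares. The genes of the RB family split. Rbl1, itself a gene of cycling cells, differed by -1.08 (SE 0.17, limma adjusted p = 0.000429) and -1.14. Rb1 differed by 0.79 (SE 0.13, adjusted p = 0.00051) and 0.59 (adjusted p = 0.00518). Rbl2, typical of resting cells and chosen after its value was seen, differed by 0.68 (adjusted p = 0.0194) and 0.49 (adjusted p = 0.0874). The repressor E2f7 differed by -0.99 and -1.0, and Cks1b, a binding partner of cyclin-dependent kinases, by -1.04 and -0.79. The mitosis list moved alongside, with 22 of 29 lower and 0 higher without EV (median -1.06) and 21 lower and 1 higher with EV (median -0.99). Top2a, the topoisomerase that untangles chromosomes, differed by -1.78 and -1.88, and the spindle checkpoint kinase Bub1 by -1.71 and -1.84.

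Some markers of other cell types moved with culture. Over all genes, 6.75% were called higher and 6.88% lower without EV, and 6.28% and 7.85% with EV. All 5 measured of 6 macrophage or monocyte markers rose in both comparisons, with an array mean of 6.16 to 6.42 in non-cultured cells, 7.59 to 8.15 without EV and 7.55 to 8.07 with EV. Csf1r, a growth factor receptor among these markers, read 5.18 ± 0.35 before and 7.42 ± 0.28 after culture without EV (SD, n = 5). Of 7 neutrophil markers 2 rose and 1 fell without EV, with array means of 5.64 to 6.82, 7.06 to 7.66 and 7.0 to 7.54 in the same order. Few genes carried that shift. The median difference was 0.14 without EV and 0.0081 with EV, the mean 1.07 and 0.88, and the largest 4.32 and 3.99. Of 8 measured LSK markers 3 rose and 1 fell without EV, with array means of 8.0 to 8.44, 8.21 to 8.28 and 7.86 to 8.25. With EV 1 rose and 2 fell. Of 5 T or NK cell markers 1, Nkg7, fell in both comparisons (-2.11 and -2.18), and array means were 4.77 to 4.94, 4.20 to 4.54 and 4.13 to 4.76. None of 5 B cell or 2 erythroid markers was called in either comparison, with B cell array means of 3.99 to 4.17, 3.79 to 4.11 and 3.98 to 4.37 and erythroid ones of 4.93 to 5.43, 5.14 to 5.58 and 5.33 to 5.53. Of 8 stromal markers 0 rose without EV and 4 with EV. Whether other cell types were present, or had a part in the fall of the replication genes, was not tested.

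**Figure D4:**
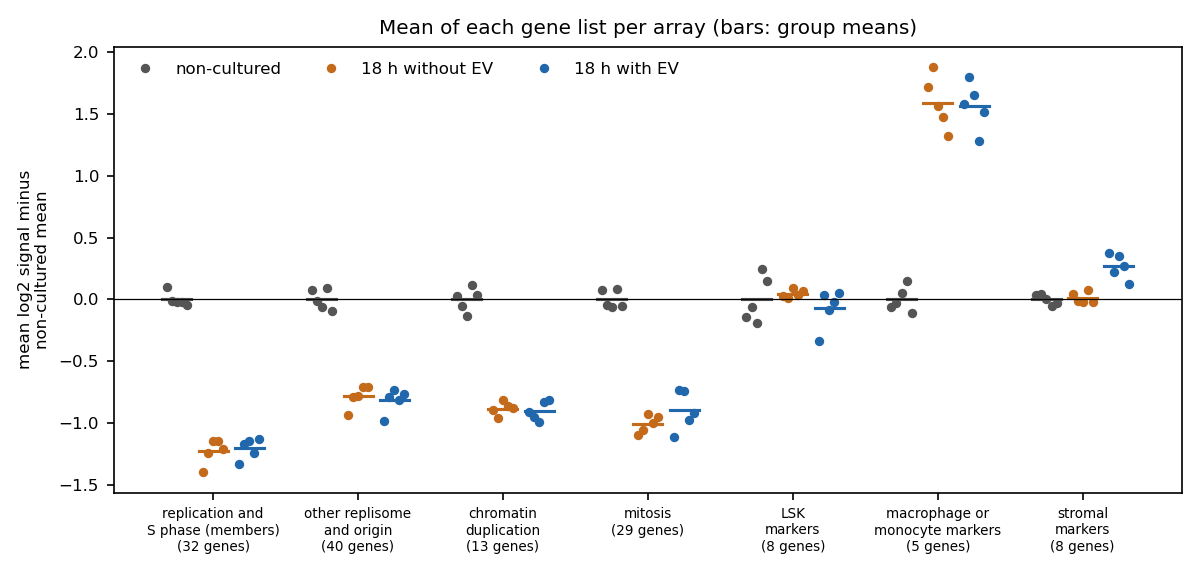
Mean log2 signal of each gene list on each array, minus the list's mean in non-cultured cells. Points are single arrays, 5 per group, and bars are group means. The replication genes of the cultured arrays lie between -1.40 and -1.13, the mitosis list between -1.11 and -0.73, and the macrophage or monocyte markers above 1.

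Culture with EV against culture without EV asks what the vesicles change in these genes. None of the 32 was called in either direction (limma adjusted p under 0.05), where 0.198% of all genes were, 0.18% higher and 0.018% lower. At so small a share, a count of 0 does not set the members apart from other genes. The smallest adjusted p was 0.62. At an unadjusted p under 0.05, 3 were higher and 1 lower, 4 of 32 where 6.82% of all genes reach that level (3.57% higher and 3.25% lower). The differences ran from -0.45 to 0.94 with a median of -0.02, and 19 were below 0 and 13 above. In none of the 32 were the groups free of overlap, against 1.2% of all genes in either direction and 0.762% in the higher one. The array mean of the 32 genes was 5.82 to 6.07 without EV and 5.88 to 6.09 with EV, where non-cultured arrays gave 7.17 to 7.32.

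The intervals bound how large a vesicle effect could be. The 95% interval lay within 2-fold in both directions for 30 of the 32 genes. For the helicase, Mcm2 measured 0.16 (-0.06 to 0.38) and Mcm5 -0.01 (-0.40 to 0.38), and Pcna measured -0.06 (-0.28 to 0.17). The exceptions were Rrm2, at 0.94 (0.08 to 1.80, adjusted p = 0.694), and Chaf1a, at 0.53 (0.01 to 1.04, adjusted p = 0.726). Without replicate 1 of the group without EV, which read 4.34, the difference of Chaf1a was 0.29, and over all single arrays dropped it lay between 0.29 and 0.68. The arrays of Rrm2 show the width, since with EV all 5 lay between 5.32 and 6.53, within the range of 4.20 to 6.78 without EV. Its second probe set differed by 0.36 (adjusted p = 0.857 among all probe sets). Dtl measured 0.41 (0.05 to 0.77, unadjusted p = 0.0285 by limma) and Orc6, the lowest, -0.45 (-0.82 to -0.09, unadjusted p = 0.0184), and neither passed over all genes.

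**Figure D5:**
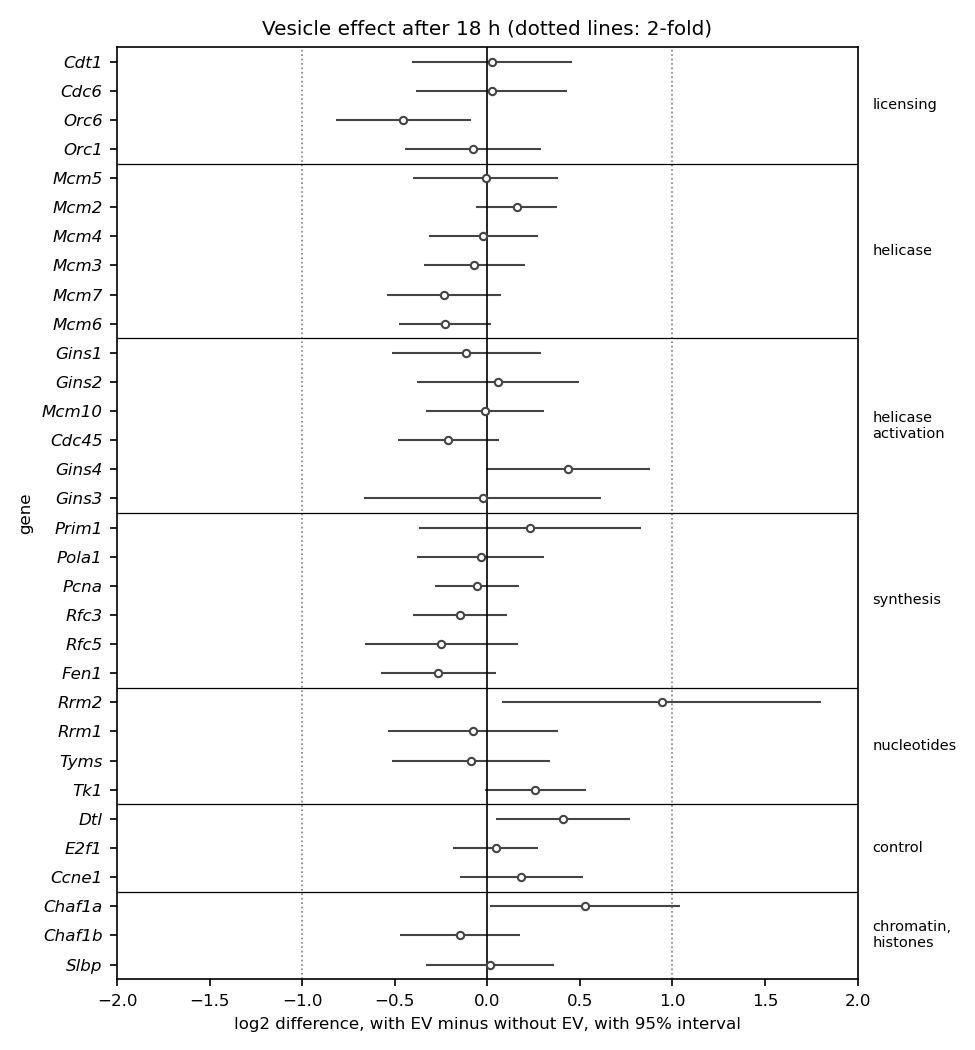
Log2 difference between cells cultured with and without EV for each of the 32 genes, with 95% intervals of the limma fit (5 arrays per group) and dotted lines at 2-fold. All points are open because none was called, and the intervals of Rrm2 and Chaf1a alone cross a dotted line.

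Pathway genes outside the list were also not called for the vesicles, apart from mitosis genes. None of the 40 other replisome and origin genes, 13 nucleotide supply genes, 22 E2F, RB and cyclin genes or 13 chromatin duplication genes was called by limma. Of all genes, 0.198% were called, so counts of 0 do not set these lists apart. An unadjusted limma p under 0.05 was reached by 1, 2, 1 and 0 of them, against 6.82% of all genes. Geminin (Gmnn) measured -0.45 (95% interval -0.93 to 0.03, adjusted p = 0.746). In the mitosis list, 2 of 29 rose and 0 fell, where 0.18% of all genes were called higher and 0.018% lower. The 2 that rose were Incenp, of the chromosomal passenger complex (0.70, SE 0.12, limma adjusted p = 0.0207), and the cytokinesis gene Anln (1.40, adjusted p = 0.0034). Of 8 stromal markers 1, Cald1, rose with EV (0.68, adjusted p = 0.00128), with array means of 4.77 to 4.88 without EV and 4.92 to 5.17 with EV.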

How the data were processed

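The authors' deposited table holds log2 signals (base taken from the range, 1.40 to 13.0) of 41345 probe sets on 15 arrays. Per the submitters' processing notes MAS5 was used, with no role or version, while background correction, summarisation and between-array normalization were not given in the sources used here. No signal over background is given, and the number of arrays limits the precision. Array medians lay between 4.62 and 4.74, so the values were used as deposited. No batch is named, and 0 of 105 array pairs were identical.

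Genes were named from the platform annotation, in which 23521 probe sets have 1 symbol, 1814 several, and 16010 are unnamed here. Group means were fitted with limma 3.58.1 in R 4.3.3 over all 22180 genes and 15 arrays, with two-sided Benjamini-Hochberg adjusted p under 0.05 as the call. Pairs of genes were compared by two-sided exact permutation tests, adjusted over 12 tests, since the pair of Ccne1 and Ccne2 could not be formed. On simulated data for EV against without EV over 22180 genes, 38% of 50 genes changed by log2 0.5, 84% at 1 and 100% at 2 were recovered. The simulated data had 173 called genes, against 44 in the data. The median SE was 0.166 for the members and 0.130 over all genes. The shares recovered therefore do not give the power for the members. All 34 members, up to 4 genes per list with the smallest adjusted p in each comparison, and list genes called with EV could be named. Members and lists were chosen with earlier results of these data known. E2F, CCAAT and CHR letters were sought in RefSeq promoter windows. Alternatives are given in the closing section.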

Additional observations from a re-analysis of the deposited data

Results flagged for a closer look

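A single array far from the other 4 of its group was sought with the Dixon test at 5% in 99 sets of 5 values, the 32 genes and their mean in 3 groups, and 5 were found, where chance gives about 1 in 20. Gins3 read 6.20 in non-cultured replicate 3 against 4.53 in the nearest array. Mcm7 read 5.72 in replicate 1 with EV against 6.31 in the nearest, on the array that stood apart over all genes. Rfc5 read 6.85 in replicate 2 with EV against 6.35. Tk1 read 6.81 in replicate 4 without EV against 6.46. The mean of the 32 genes was 7.32 in non-cultured replicate 1 against 7.20 in the nearest array.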

How the results depend on the processing

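The fall in culture held under every alternative run: 25 to 28 of 32 genes were called lower without EV and 25 to 29 with EV under 10 other settings, 26 to 28 and 26 to 28 in 15 fits that each left out 1 array, and 25 genes were called in all 25 fits of each comparison. Among all genes tested in the same fits, 1230 to 1756 were called lower without EV and 1428 to 1812 with EV. No member was called for the vesicles in any of 24 fits, in which 29 to 50 of all genes tested were called higher and 0 to 5 lower. Correlations of same-numbered deviations ran from -0.12 to 0.19, and between the cultured groups from 0.023 to 0.19. The labels do not say whether the replicate numbers pair the samples, and these values cannot decide it. With the replicate number as a block, 27 genes were called lower without EV and 26 with EV, and Chaf1a (adjusted p = 0.0893) and Slbp (adjusted p = 0.0534) were lost. Of all genes, the 4 called lower with EV against without EV became 2 after quantile normalization, 0 with all probe sets adjusted together, 0 with only the 2 groups in the fit, and 0 to 4 when 1 array was left out. Gins4 with EV against non-cultured cells became 0.034 after quantile normalization, and Ccne1 lay between -0.18 and 0.016 when 1 array was left out. Differences near 0 between the cultured groups changed sign: with quantile normalization Cdc6 -0.0032, Mcm4 0.043 and Mcm5 0.0061, with median centring Cdc6 -0.0029, Cdt1 -0.0019 and Slbp -0.013, and with array weights Cdc6 -0.0071, Cdt1 -0.054, Mcm4 0.0051, Mcm5 0.066, Gins3 0.033 and Pola1 0.046. Left-out arrays gave Orc1 -0.17 to 0.029, Cdc6 -0.031 to 0.079, Cdt1 -0.12 to 0.20, Mcm3 -0.15 to 0.032, Mcm4 -0.12 to 0.071, Mcm5 -0.11 to 0.11, Mcm10 -0.12 to 0.047, Gins2 -0.0034 to 0.12, Gins3 -0.12 to 0.13, Pola1 -0.13 to 0.13, Pcna -0.12 to 0.022, Rrm1 -0.20 to 0.13, Tyms -0.24 to 0.048, E2f1 -0.010 to 0.092 and Slbp -0.10 to 0.098. The change in Rrm2 minus Rrm2b with non-cultured replicates 1 to 3 as the only reference was -3.06 without EV and -2.18 with EV (exact permutation adjusted p = 0.107, near the smallest these numbers allow), and -3.43 to -2.80 and -2.30 to -2.03 when 1 array was left out. Left-out arrays also gave, for Cdt1 minus Gmnn, -0.75 to -0.46 without EV, -0.23 to 0.038 with EV and 0.31 to 0.69 between them, for Gins1 minus Gins3, -1.79 to -1.17, -1.88 to -1.25 and -0.23 to 0.053, and for E2f1 minus E2f4, -0.45 to -0.18 without EV, -0.33 to -0.094 with EV and -0.054 to 0.22 between the cultured groups, the last also -0.028 after quantile normalization. The cause was not tested.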
